A study of Mus musculus with 5 samples.

Results

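Molecular chaperones help other proteins fold, keep them from aggregating or hold them for assembly. The genes described here encode heat shock proteins of the HSP70, HSP110, HSP90, HSP60, HSP10 and small HSP families, the J-domain proteins that drive the ATPase cycle of HSP70, and the CCT chaperonin, a cytosolic ring complex that folds actin and tubulin. They were chosen by symbol alone: a probe set (a group of probes summarised to 1 value) belonged if its only annotated symbol began with Hspa, Hspb, Hsp90, Hspd, Hspe, Dnaja, Dnajb or Dnajc and a number, or was Hsph1, Tcp1 or a Cct gene. This gave 103 probe sets for 80 genes, of 19938 genes measured, and each gene was represented by its brightest probe set.

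The cyclin D1 group held 3 mice with the rtTA transgene and a cyclin D1 (CCND1) transgene, and the control group held 2 mice with MMTV-rtTA alone. All were FvB/N females aged 8 weeks, and each gave 1 array of whole mammary gland RNA. Both groups thus carried rtTA, a doxycycline-dependent transactivator driven by a viral promoter that is active in mammary epithelium. The protocol text gives 7 days of doxycycline, worded for rtTA mice with a "KE mutant" of CCND1, and does not say whether the controls received the drug. In whole glands, fewer cells of a type and less RNA per cell cannot be told apart. All values are log2 expression as deposited, and all differences are cyclin D1 minus control.

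The endoplasmic reticulum (ER), the cytosol and the mitochondrion each have their own chaperones. In the ER, BiP (Hspa5) and GRP94 (Hsp90b1) fold secreted and membrane proteins, and their genes respond to unfolded protein through a promoter sequence called the ER stress element. In the cytosol, heat shock factors bind a heat shock element in the promoters of inducible genes. In mitochondria, the HSP70 of the matrix (Hspa9) takes up imported proteins, and HSP60 (Hspd1) with HSP10 (Hspe1) folds them.

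Promoter windows from RefSeq (GRCm38.p6), 250 bases before to 50 after each start site, were found for 66 of the 80 genes. The ER stress element was searched on both strands as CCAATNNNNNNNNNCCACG. It was present in 3 of 10 ER genes with a window (Hspa5, Hsp90b1 and Dnajc3) and in no gene of another class, whereas 0.137% of all 27025 genes held it. The heat shock element was searched on both strands as GAANNTTCNNGAA or TTCNNGAANNTTC, matches being allowed to overlap. It was present in 4 of the 66 genes (Hspd1, Hspe1, Hsph1 and Dnajb6), against 0.662% of all genes, and in Hsph1 it lay after the start site. A match is a string of letters, not a measured binding site. The 5 stretches below hold the elements of genes described further on. Each runs 5′ to 3′ on the strand of its gene, with the matched element in capitals.
Hspa5, chr2:34771970-34772059, plus strand, bases -120 to -31 from the start site, 1 ER stress element: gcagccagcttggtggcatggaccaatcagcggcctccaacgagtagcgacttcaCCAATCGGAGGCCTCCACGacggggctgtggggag
Dnajc3, chr14:118937792-118937881, plus strand, bases -140 to -51, 1 ER stress element: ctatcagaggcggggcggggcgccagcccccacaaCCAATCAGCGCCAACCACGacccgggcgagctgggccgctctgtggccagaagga
Hsp90b1, chr10:86705515-86705674, minus strand, bases -230 to -71, 2 ER stress elements in opposite orientation: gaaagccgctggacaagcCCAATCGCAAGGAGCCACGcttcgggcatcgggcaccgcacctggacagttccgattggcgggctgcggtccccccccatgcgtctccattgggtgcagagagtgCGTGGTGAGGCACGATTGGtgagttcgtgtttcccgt
Hspd1, chr1:55088023-55088112, minus strand, bases -180 to -91, 2 overlapping heat shock elements that also lie in the window of the divergent gene Hspe1: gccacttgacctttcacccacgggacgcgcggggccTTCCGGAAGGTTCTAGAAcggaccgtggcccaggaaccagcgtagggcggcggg
Dnajb6, chr5:29735758-29735877, plus strand, bases -140 to -21, 1 heat shock element that lies in the windows of both start sites listed for the gene: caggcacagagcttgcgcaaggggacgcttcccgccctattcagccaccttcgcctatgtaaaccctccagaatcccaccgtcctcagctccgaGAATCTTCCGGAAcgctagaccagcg

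The arrays differed in range. The SD across all genes was 1.20 to 1.38 on the cyclin D1 arrays, against 0.735 and 0.926 on the controls. On the cyclin D1 arrays 26 to 32 of the 80 chaperone genes lay above a log2 value of 5, against 5 on the array of control 1 and 12 on that of control 2. Brightness was the mean over all 5 arrays, 3 of them cyclin D1, so a gene's own difference moved its place in the ranking. The relation of difference to brightness, and the shares given below for the brightest 10%, are therefore partly built in. With that limit, differences followed brightness: the median difference was 1.59 in the brightest 10% of genes and -0.29 in the dimmest 10%. A second difference is therefore given, computed after quantile normalization of the gene table across the 5 arrays ("renormalized"). Ccnd1 had 4.63, 4.92 and 4.005 in cyclin D1 glands, against 4.04 and 3.49 in controls; the groups overlapped and it did not pass the test (difference 0.75, limma adjusted p = 0.218, -0.14 renormalized). Whether its probe set reads the transgene is not known, so the labels could not be checked with it. All 6 luminal epithelial markers (Epcam, Krt8, Krt18, Krt19, Cdh1 and Elf5) had every cyclin D1 value above both controls, and 3 of them passed (Epcam, Cdh1 and Elf5). Their mean log2 level was 5.14 to 5.62 on the cyclin D1 arrays, against 3.66 and 3.80 on the controls. After renormalization 0 of the 6 passed in limma (3 were higher at an unadjusted p under 0.05), 5 differences were positive and 1 negative (Krt18, -0.55), with a median of 0.63. In limma, 0 of 6 adipocyte markers passed (0 at an unadjusted p under 0.05), with mean levels of 4.90 to 6.18 on the cyclin D1 arrays, against 5.26 and 5.63 on the controls. After renormalization all 6 adipocyte differences were negative, with a median of -0.87, and 0 passed in limma (1 was lower at an unadjusted p under 0.05). Of 5 basal epithelial markers 1 passed (Acta2, difference 2.48). Of the 5 differences 3 were positive and 2 negative (Krt14, -0.10, and Oxtr, -0.29), with a median of 0.55 (0.49 renormalized). Limma called 0 of the leukocyte, endothelial and fibroblast markers, whose median differences were 0.10, 0.45 and 0.61 (-0.01, 0.17 and -0.30 renormalized). The part of epithelial content in the chaperone results was not tested.

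Among the 80 chaperone genes, 17 rose in cyclin D1 glands and 0 fell in the limma test (36 were higher and 0 lower at an unadjusted p under 0.05). Over all genes, 5.38% rose and 0.687% fell, and 16.2% were higher and 10.1% lower at an unadjusted p under 0.05. The 17 comprised 5 of 12 ER genes, 5 of 9 CCT genes, 3 of 9 cytosolic HSP70, HSP110 and HSP90 genes, 2 of 17 cytosolic J-domain genes and 2 of 8 mitochondrial genes. None came from the 7 small HSP genes or the 18 genes placed in no class. In the brightest 10% of genes lay 29 of the 80, of which 11 rose, beside 36% of all genes in that decile. In 40 of the 80 genes all cyclin D1 values lay above both controls and in 10 all lay below, where the shares over all genes were 22.4% and 22.6%; in the brightest decile the share above was 82.2%. The median difference of the 80 was 0.51, beside -0.05 over all genes, and 0.19 renormalized, beside -0.02.

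These calls, like those over all genes, depended on single mice. Without cyclin D1 replicate 1 or without cyclin D1 replicate 2, limma called 0 of the 80 genes and 0 of all 19938 genes. At an unadjusted p under 0.05, 32 and 30 of the 80 were higher, beside 2648 and 2628 of all genes. At that unadjusted level 0 and 0 of the 80 were lower, beside 920 and 863 of all genes. Without cyclin D1 replicate 3 limma called 5 of the 80 higher and 0 lower, beside 299 and 2 of all genes. Leaving out a control left 1 control array, so only medians are given here for those fits. The median difference of the 80 was 0.40 without control 1 and 0.71 without control 2, beside 0.51 with all arrays. All 17 kept a positive difference in each of these 5 fits, which was fixed in advance because their deposited groups did not overlap. After renormalization limma called 0 of the 80 genes (20 higher and 2 lower at an unadjusted p under 0.05, beside 9.33% and 9.4% of all genes). Over all genes 0.256% rose and 0.105% fell on that scale, and 16 of the 17 differences were positive.

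**Figure D1:**
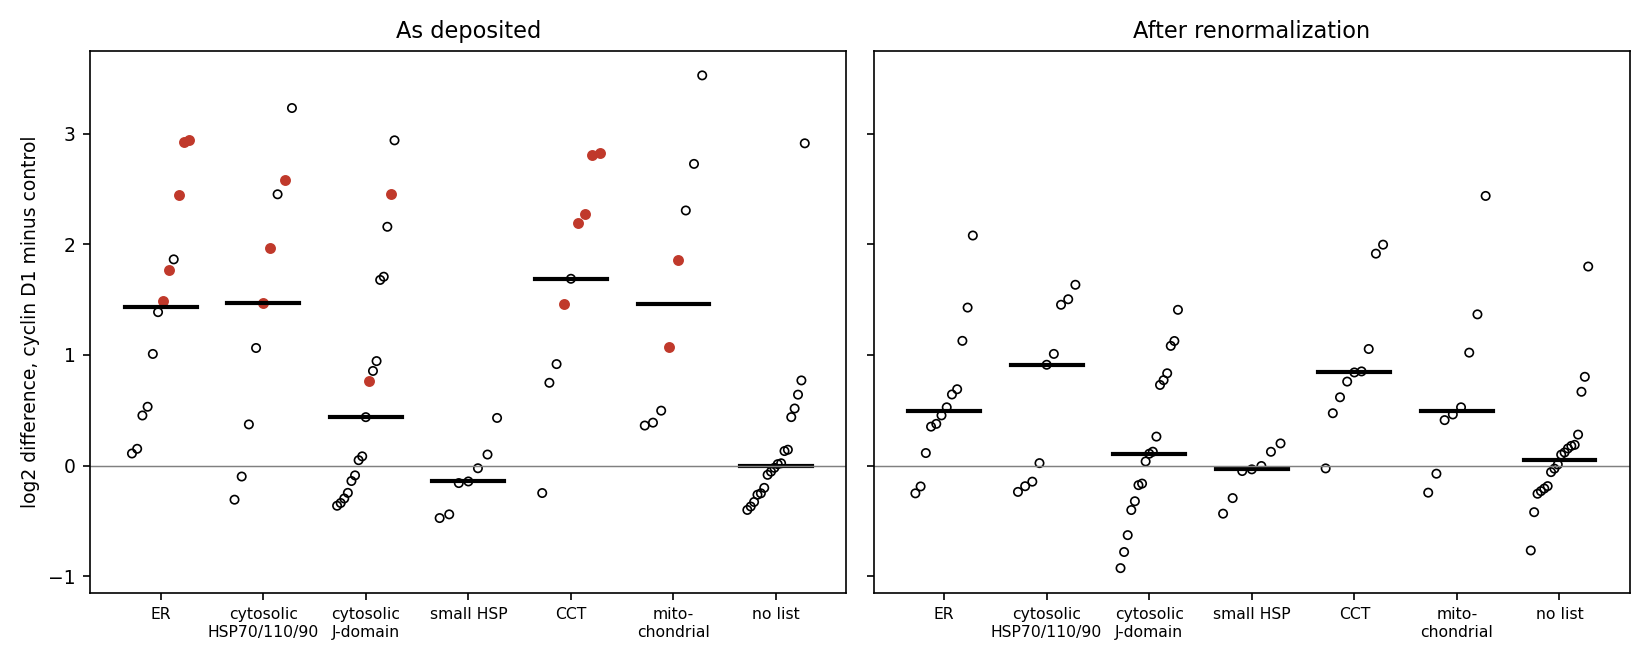
Log2 difference, cyclin D1 minus control, of each chaperone gene (points) by class, as deposited (left) and renormalized (right); filled red points passed the limma test, open points did not, and black bars are class medians ("no list" marks genes placed in no class). The CCT median is 1.69 on the left and 0.84 on the right, the ER median 1.44 and 0.49, and small HSP genes lie near 0 on both.

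Among ER genes the 3 largest deposited differences were those of Dnajb9, Hspa5 and Dnajc3, which encode BiP and 2 of its J-domain partners. Hspa5, which encodes BiP, had 7.37, 7.95 and 6.98 in cyclin D1 glands, against 3.96 and 5.07 in controls. Every cyclin D1 value lay well above both controls. The means were 7.44 ± 0.49 (SD, n = 3) in cyclin D1 and 4.51 ± 0.78 (SD, n = 2) in control glands, a difference of 2.93 (SE 0.43, limma adjusted p = 0.0293), or 7.60-fold. The difference was 1.43 renormalized (adjusted p = 0.0969) and 2.37 without control 1.

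Dnajb9 (ERdj4), a J-domain protein that brings unfolded proteins to BiP, had 6.84, 6.12 and 6.30 in cyclin D1, against 2.82 and 4.14 in control glands. It rose by 2.94 (SE 0.44, limma adjusted p = 0.0303), and the renormalized difference was 2.08. Dnajc3 (P58IPK), a lumenal co-chaperone of BiP, had 8.02, 8.22 and 7.99 in cyclin D1, against 5.43 and 5.83 in control glands. The values of Dnajc3 were tight within both groups and far apart between them. Its difference of 2.45 (SE 0.18, limma adjusted p = 0.0147) became 0.64 on renormalization (adjusted p = 0.209). Dnajb11 (ERdj3), a soluble partner of BiP, had 5.88, 6.08 and 5.23 in cyclin D1, against 3.62 and 4.31 in control glands (difference 1.77, limma adjusted p = 0.0465, 0.69 renormalized). Hspa13, an HSP70-like protein of microsomes, had 4.45, 5.07 and 4.17 in cyclin D1, against 3.15 and 2.99 in control glands (difference 1.49, limma adjusted p = 0.0482, 1.13 renormalized). In these 5 genes the groups did not overlap on either scale.

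Hsp90b1, which encodes the ER HSP90 (GRP94), did not pass. It had 10.05, 9.87 and 9.98 in cyclin D1 glands, against 7.39 and 8.81 in controls. The cyclin D1 values lay close together, and control 1 lay well below control 2. The difference of 1.86 (SE 0.42, limma adjusted p = 0.0651) was 1.15 without control 1, 2.57 without control 2 and 0.38 renormalized, where the groups overlapped. Of the ER genes whose printed promoters hold the ER stress element, Hspa5 and Dnajc3 rose and Hsp90b1 did not pass. Dnajb9 rose, and its window held no match. Dnajc10 (ERdj5), a J-domain protein with disulphide reductase activity, differed by 1.39 (limma adjusted p = 0.0679, 0.11 renormalized), and the membrane J-domain gene Dnajc1 by 1.01 (limma adjusted p = 0.174, 0.35 renormalized). On the renormalized scale the groups of both overlapped. The remaining 4 ER genes, Dnajb12, Dnajb14, Dnajc14 and Dnajc18, encode J-domain proteins of the ER membrane; they differed by 0.11 to 0.53 and their groups overlapped. Over the 12 ER genes the median difference was 1.44 (0.49 renormalized). In 8 all cyclin D1 values lay above both controls, and in 6 after renormalization, where the share of all genes was 20.1%.

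**Figure D2:**
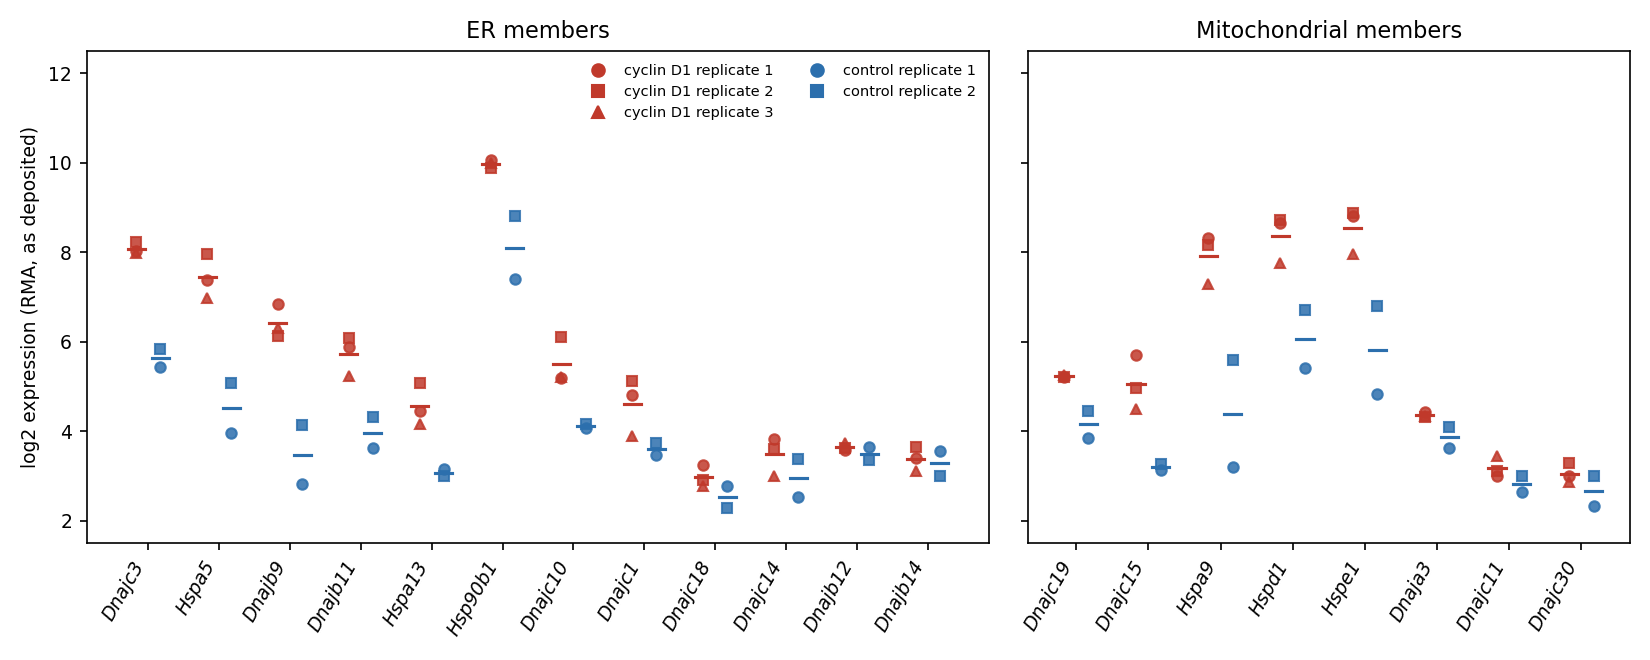
Deposited log2 expression of each ER gene (left) and mitochondrial gene (right) on the 3 cyclin D1 arrays (red) and the 2 control arrays (blue), with 1 symbol per replicate and bars at group means. The groups stand apart in Dnajc3, Hspa5 and Dnajb9, and control 1 lies below control 2 in Hspa5, Dnajb9, Hsp90b1, Hspa9, Hspd1 and Hspe1.

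The mitochondrial folding machine had large differences with widely spaced controls. Hspa9, the mitochondrial HSP70, had 8.31, 8.15 and 7.29 in cyclin D1 glands, against 3.20 and 5.59 in controls. No control came near the cyclin D1 values, but the controls lay far apart. The difference of 3.53 (SE 0.74), or 11.5-fold, was the largest of the 80 genes as deposited and did not pass (limma adjusted p = 0.0574). It was 2.44 renormalized and 2.33 without control 1. Hspd1 (HSP60) had 8.65, 8.72 and 7.75 in cyclin D1, against 5.41 and 6.72 in control glands (difference 2.31, limma adjusted p = 0.0579, 0.53 renormalized). Hspe1 (HSP10), the lid of HSP60, had 8.80, 8.87 and 7.95 in cyclin D1, against 4.84 and 6.79 in control glands (difference 2.73, limma adjusted p = 0.0686, 1.02 renormalized). In all 3 genes cyclin D1 replicate 3 was the lowest of its group and control 1 the lower control.

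The mitochondrial genes that passed encode J-domain proteins linked to the protein import motor. Dnajc15 had 5.70, 4.97 and 4.50 in cyclin D1, against 3.13 and 3.27 in control glands (difference 1.86, limma adjusted p = 0.0484, 1.37 renormalized). Dnajc19 had 5.22, 5.21 and 5.25 in cyclin D1, against 3.85 and 4.45 in control glands (difference 1.07, limma adjusted p = 0.0476). Its groups did not overlap as deposited, but they did after renormalization, where the difference turned to -0.07. The J-domain genes Dnaja3, Dnajc11 and Dnajc30 differed by 0.36 to 0.50 and did not pass. Renormalized, Dnajc11 and Dnajc30 differed by 0.41 and 0.46, while Dnaja3 turned to -0.24 with overlapping groups. The median over the 8 mitochondrial genes was 1.46 (0.49 renormalized).

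In the cytosol, the large HSP genes that passed encode 2 HSP110-type exchange factors and a ribosome-associated HSP70. Hspa4, an exchange factor that recharges HSP70 with nucleotide, had 6.95, 7.27 and 6.74 in cyclin D1 glands, against 4.29 and 4.52 in controls. The values were tight within groups and did not overlap. The difference of 2.58 (SE 0.20, limma adjusted p = 0.0147) was 1.01 renormalized and stayed at 2.44 to 2.71 as single arrays were left out. Hspa4l, its close relative, had 5.35, 5.41 and 4.45 in cyclin D1, against 3.08 and 3.13 in control glands (difference 1.97, limma adjusted p = 0.0353, 1.504 renormalized). Hspa14, which acts on nascent chains at the ribosome, had 3.86, 3.84 and 3.65 in cyclin D1, against 2.19 and 2.44 in control glands (difference 1.47, limma adjusted p = 0.0173, 1.45 renormalized). Control 1 of Hspa14 fell under a rough floor, the average olfactory receptor gene on that array (2.52), so the size of this difference is inexact. All 3 genes kept separate groups after renormalization.

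The abundant cytosolic HSP90 and constitutive HSP70 genes did not pass. Hsp90aa1, an HSP90 of the cytosol, had 10.03, 10.65 and 9.64 in cyclin D1 glands, against 5.81 and 7.93 in controls (difference 3.23, SE 0.66, limma adjusted p = 0.0553, 1.63 renormalized). Its groups did not overlap on either scale, although the controls lay far apart. Hspa8, the constitutive HSP70, had 10.15, 9.65 and 9.19 in cyclin D1, against 5.63 and 8.79 in control glands. Control 2 was close to the cyclin D1 arrays and control 1 far below, and the difference of 2.45 (limma adjusted p = 0.174) was 0.87 without control 1 and 4.04 without control 2. Hspa1a, the heat-inducible HSP70, had 3.71, 4.53 and 3.69 in cyclin D1, against 3.67 and 3.54 in control glands, and its difference was 0.37 (limma adjusted p = 0.450, -0.19 renormalized). Hsph1 (HSP105), an inducible exchange factor, differed by 1.06 (limma adjusted p = 0.139, -0.24 renormalized). Hspa1l and Hspa2, HSP70 genes best known from testis, differed by -0.31 and -0.10. Hspa8, Hspa1a, Hsph1, Hspa1l and Hspa2 were picked after their values were seen. Hsp90ab1 and Hspa1b had no probe set annotated to them alone and were not analysed here.

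**Figure D3:**
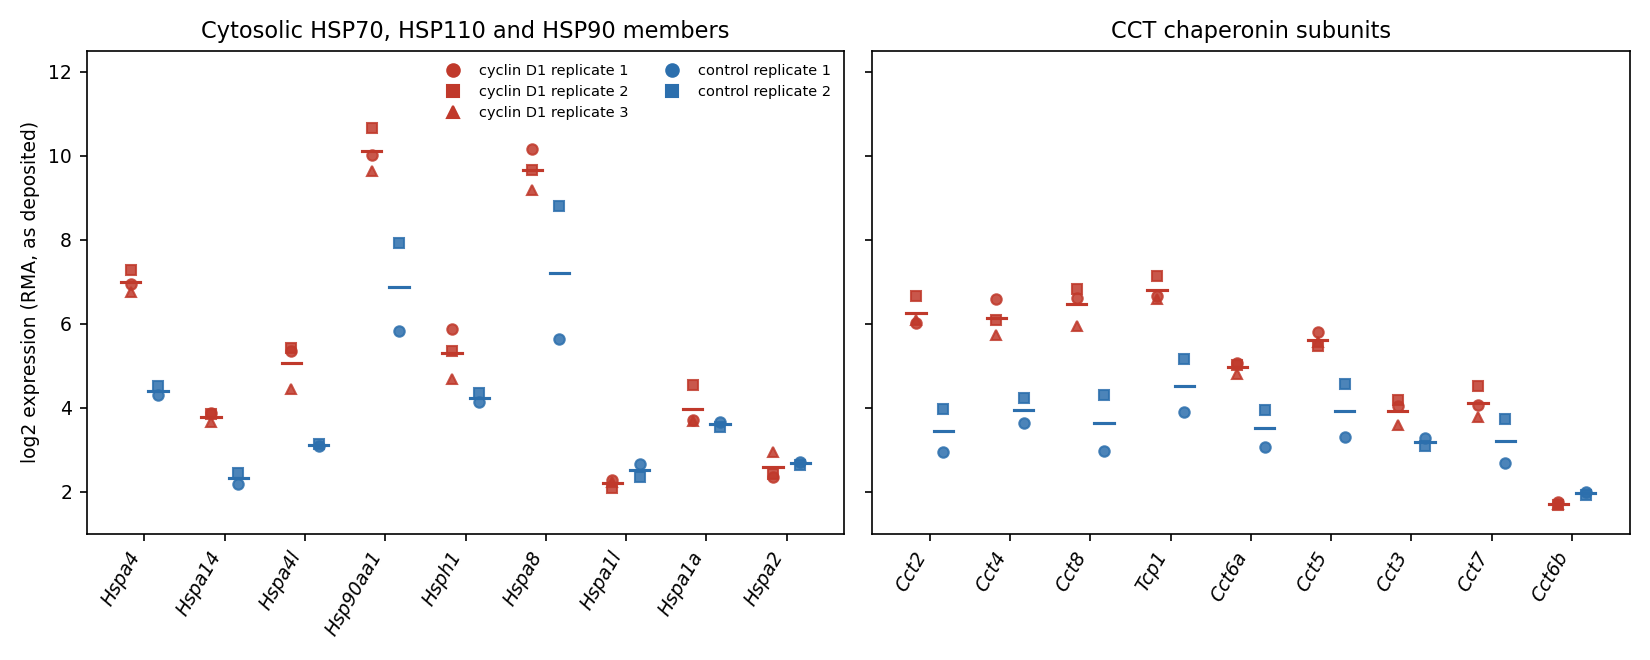
Deposited log2 expression of cytosolic HSP70, HSP110 and HSP90 genes (left) and CCT subunit genes (right) on the cyclin D1 arrays (red) and control arrays (blue), with 1 symbol per replicate and bars at group means. Hspa4 and Hspa4l have tight controls below the cyclin D1 arrays, and the controls of Hspa8 lie at 5.63 and 8.79. All cyclin D1 values lie above both controls in 8 of the 9 CCT genes, beside 22.4% of all genes (82.2% in the brightest decile).

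Of the 9 CCT genes, 5 rose. The ring is built from the products of Tcp1, Cct2, Cct3, Cct4, Cct5, Cct6a, Cct7 and Cct8, and Cct6b encodes a testis form of Cct6a. Cct8 had 6.62, 6.83 and 5.94 in cyclin D1 glands, against 2.96 and 4.31 in controls (difference 2.83, SE 0.47, limma adjusted p = 0.0358, 1.92 renormalized). Cct2 had 6.01, 6.66 and 6.10 in cyclin D1, against 2.94 and 3.96 in control glands (difference 2.80, SE 0.36, limma adjusted p = 0.0234, 1.997 renormalized). Control 1 was the lower control in both genes, and neither control reached the lowest cyclin D1 array. Tcp1 had 6.66, 7.15 and 6.58 in cyclin D1, against 3.89 and 5.16 in control glands (difference 2.27, limma adjusted p = 0.0417, 0.84 renormalized). Cct4 had 6.58, 6.10 and 5.72 in cyclin D1, against 3.64 and 4.24 in control glands (difference 2.19, limma adjusted p = 0.0280, 1.05 renormalized). Cct6a had 5.06, 5.01 and 4.81 in cyclin D1, against 3.06 and 3.94 in control glands (difference 1.46, limma adjusted p = 0.0486, 0.85 renormalized). These 3 genes also kept their groups apart on both scales.

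The other subunit genes did not pass: Cct5 differed by 1.69 (limma adjusted p = 0.0672, 0.76 renormalized), Cct7 by 0.92 (limma adjusted p = 0.202, 0.62 renormalized) and Cct3 by 0.75 (limma adjusted p = 0.108, 0.47 renormalized). Cct6b had 1.75, 1.69 and 1.70 in cyclin D1, against 1.99 and 1.93 in control glands, under the olfactory receptor average on all 5 arrays, so no difference is read for it. With all arrays in the fit, the other 8 genes had positive differences on both scales, 0.75 to 2.83 as deposited and 0.47 to 1.997 renormalized. Their groups did not overlap as deposited, and in 6 of them they did not overlap after renormalization. Over all genes, the cyclin D1 values lay above both controls in 22.4% as deposited and 20.1% renormalized. In the brightest decile, where 5 of the 9 CCT genes lay, the deposited share was 82.2%. Without control 1 the median over the 9 genes was 1.06, beside 1.69 with all arrays. Renormalized, that median was 0.33 without control 1 and 1.40 without control 2, beside 0.84 with all arrays, and without control 1 the differences of Cct5 and Cct7 were -0.067 and -0.073.

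Cytosolic J-domain proteins hand substrates to HSP70, and their genes were mixed. Dnaja2, a general HSP70 partner, had 6.69, 7.01 and 6.77 in cyclin D1 glands, against 3.79 and 4.95 in controls (difference 2.45, SE 0.35, limma adjusted p = 0.0285, 1.08 renormalized). Dnajb6, which keeps proteins from aggregating, had 3.59, 3.35 and 3.32 in cyclin D1, against 2.66 and 2.65 in control glands (difference 0.77, limma adjusted p = 0.0462, 0.77 renormalized). Both genes kept their groups apart on both scales. Dnajc7, which binds HSP70 and HSP90, differed by 1.68 (limma adjusted p = 0.0630, 0.73 renormalized), and Dnajc9, a histone co-chaperone, by 1.71 (limma adjusted p = 0.0808, 0.83 renormalized). Dnaja1 and Dnajb1 were picked after their values were seen. Dnaja1, another general partner, had 9.88, 9.49 and 9.04 in cyclin D1, against 4.76 and 8.30 in control glands, and its controls lay further apart than its group means (difference 2.94, limma adjusted p = 0.148). Dnajb1, the heat-inducible partner of HSP70, had 2.96, 2.96 and 2.63 in cyclin D1, against 2.69 and 2.91 in control glands, with overlapping groups (difference 0.05, limma adjusted p = 0.872). Over the 17 genes 11 differences were positive and 6 negative, with a median of 0.44 (0.11 renormalized).

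Small HSPs hold unfolding proteins in soluble form, and several are rich in muscle. Their 7 genes lay between 1.95 and 4.20 on all arrays, and limma called 0 of them (0 at an unadjusted p under 0.05). Hspb1 (HSP27) differed by 0.43 (limma adjusted p = 0.335), while the muscle-rich genes Hspb2, Hspb7 and Hspb3 differed by -0.44, -0.47 and -0.16 (limma adjusted p = 0.237, 0.356 and 0.469). Renormalized, Hspb1, Hspb2, Hspb7 and Hspb3 differed by 0.13, -0.43, -0.29 and -0.03. Hspb7 lay under the olfactory receptor average on control 1 and on cyclin D1 replicates 1 and 2, so the size of its difference is inexact. The remaining genes Hspb9, Hspb8 and Hspb6, added after their values were seen, differed by -0.14, 0.10 and -0.02. Skeletal muscle markers were dim too, with mean levels of 2.58 to 2.74 on the cyclin D1 arrays, against 2.86 and 2.74 on the controls. Among genes in no class, Dnajc13 (RME-8), an endosomal J-domain protein, had 7.43, 7.35 and 7.04 in cyclin D1, against 3.28 and 5.45 in control glands (difference 2.91, limma adjusted p = 0.0599, 1.80 renormalized). Dnajc24 (DPH4), which serves diphthamide synthesis, differed by 0.77 (limma adjusted p = 0.0508, 0.80 renormalized). Dnajc25 differed by 0.44 (limma adjusted p = 0.223) and Hspa12b, an atypical HSP70 of endothelium, by -0.40 (limma adjusted p = 0.228).

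Set side by side, the ER, mitochondrial and cytosolic genes had median differences of 1.44, 1.46 and 0.76 as deposited and 0.49, 0.49 and 0.16 renormalized. The difference between compartments was not tested. Of the 42 cytosolic genes 12 lay below the median gene in brightness, and of the ER and mitochondrial genes 0 did. With genes below the median brightness left out, the ER, mitochondrial and cytosolic medians were 1.44, 1.46 and 1.46. Without control 1 the ER, mitochondrial and cytosolic medians were 1.25, 1.21 and 0.41.

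**Figure D4:**
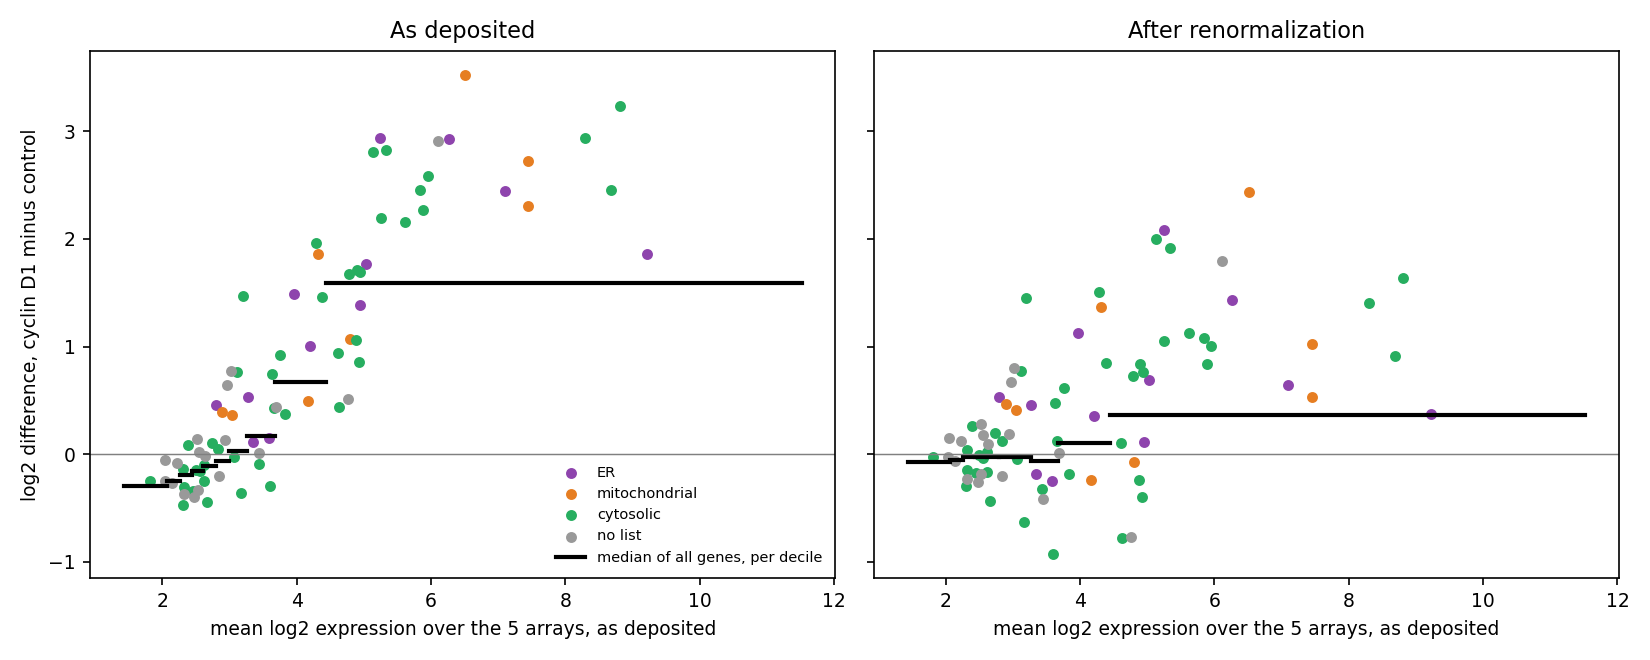
Log2 difference, cyclin D1 minus control, of each chaperone gene against its mean log2 expression over the 5 arrays, as deposited (left) and renormalized (right), coloured by compartment; black bars give the median difference of all genes in each decile of brightness. Chaperone genes in the brightest decile had a median of 2.27 as deposited and 0.84 renormalized, beside 1.59 and 0.36 for all genes there.

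Partners of these chaperones were read from separate lists. The cytosolic co-chaperone list also holds the heat shock factor genes Hsf2 and Hsf4 and the small HSP gene Cryab. Of its 32 measured genes 6 rose and 0 fell, beside 5.38% and 0.687% of all genes. In the brightest decile lay 13 of the 32, of which 5 rose, beside 36% of all genes there. The median difference was 0.80 (0.42 renormalized). Renormalized, 23 differences were positive and 9 negative. In 12 genes all cyclin D1 values then lay above both controls and in 4 below, beside 4012 and 3878 of all 19938 genes. Chordc1, an HSP90 partner, had 6.98, 6.49 and 6.45 in cyclin D1, against 3.20 and 3.86 in control glands (difference 3.11, limma adjusted p = 0.0165, 2.22 renormalized). Sugt1, another HSP90 partner, had 4.35, 4.48 and 4.37 in cyclin D1, against 2.90 and 2.97 in control glands (difference 1.46, limma adjusted p = 0.0165, 1.22 renormalized). The groups of both stood apart on both scales. Bag1, an exchange factor of HSP70, rose by 2.38, Stip1 (HOP), which bridges HSP70 and HSP90, by 1.90, Ahsa2, a relative of an HSP90 activator, by 2.01, and Pdcl3, a CCT co-factor, by 1.81. Renormalized, Bag1, Stip1, Ahsa2 and Pdcl3 differed by 0.55, 0.70, 1.37 and 0.40 and did not pass, and the groups of Pdcl3 overlapped. Hsf1 had no probe set annotated to it alone and was not analysed here.

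Of 14 further ER folding genes 2 rose and 0 fell, beside 5.38% and 0.687% of all genes, with a median of 1.09 (0.13 renormalized). In the brightest decile lay 7 of the 14, of which 2 rose, beside 36% of all genes there. Renormalized, 10 of the 14 differences were positive and 4 negative. In 5 genes all cyclin D1 values then lay above both controls and in 3 below, beside 4012 and 3878 of all 19938 genes. Both genes that rose encode disulphide isomerases. Pdia4 and Pdia6, isomerase genes picked after their values were seen, did not pass. P4hb had 6.34, 7.11 and 5.95 in cyclin D1, against 3.37 and 4.35 in control glands (difference 2.61, limma adjusted p = 0.0377, 1.57 renormalized). Pdia3 had 9.35, 9.53 and 9.17 in cyclin D1, against 7.58 and 8.00 in control glands (difference 1.56, limma adjusted p = 0.0226), and its groups overlapped once renormalized, at 0.06. Sec63, the J-domain subunit of the translocon, differed by 3.19 (limma adjusted p = 0.0548, 2.27 renormalized) and Canx (calnexin), a lectin chaperone, by 2.47 (limma adjusted p = 0.0630, 0.78 renormalized). Of 7 mitochondrial folding and protease genes 1 rose and 0 fell (5.38% and 0.687% over all genes), with a median of 0.50 on both scales. That gene was Clpx, the unfoldase of the matrix protease ClpXP, which had 5.67, 5.65 and 5.35 in cyclin D1, against 2.49 and 2.68 in control glands (difference 2.97, limma adjusted p = 0.0102). Clpx passed on the renormalized scale too, at 2.53 (limma adjusted p = 0.0434). Its control 1 lay under the olfactory receptor average of that array (2.52), so the size of both differences is inexact. Hscb, Trap1 and Grpel2, a J-domain protein of iron-sulphur assembly, the mitochondrial HSP90 and an exchange factor, differed by 0.55, 0.50 and 0.35 and did not pass.

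Probe sets annotated to the same chaperone gene did not always give the same values. Of the 80 genes 8 had more than 1 probe set, and in 5 of them the brightest one had neighbours in identifier order on another chromosome than the gene. For Hspa8 the probe set with neighbours on chromosome 9, where the gene lies, had 9.34, 7.90 and 8.69 in cyclin D1, against 6.60 and 8.86 in control glands. Its groups overlapped, and its difference was 0.92 (limma adjusted p = 0.469), beside 2.45 for the brightest set, whose neighbours lie on chromosome 5. For Hspd1 the probe set with neighbours on chromosome 1, where the gene lies, had 6.45, 7.32 and 6.28 in cyclin D1, against 3.63 and 4.09 in control glands. That set passed (difference 2.82, limma adjusted p = 0.0230), unlike the brightest one. Hsp90aa1 and Dnaja1 differed by 2.95 and 2.24 on their own-chromosome sets (limma adjusted p = 0.0569 and 0.136). Hspb1 differed by 0.22 on its own-chromosome set, beside 0.43 for its brightest set, with overlapping groups in both. Dnajc13 had 15 probe sets, all with neighbours on its own chromosome; 14 differences were positive, and in 13 sets all cyclin D1 values lay above both controls. The 2 probe sets of Dnajc3 held the same values and count as 1 measurement.

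**Figure D5:**
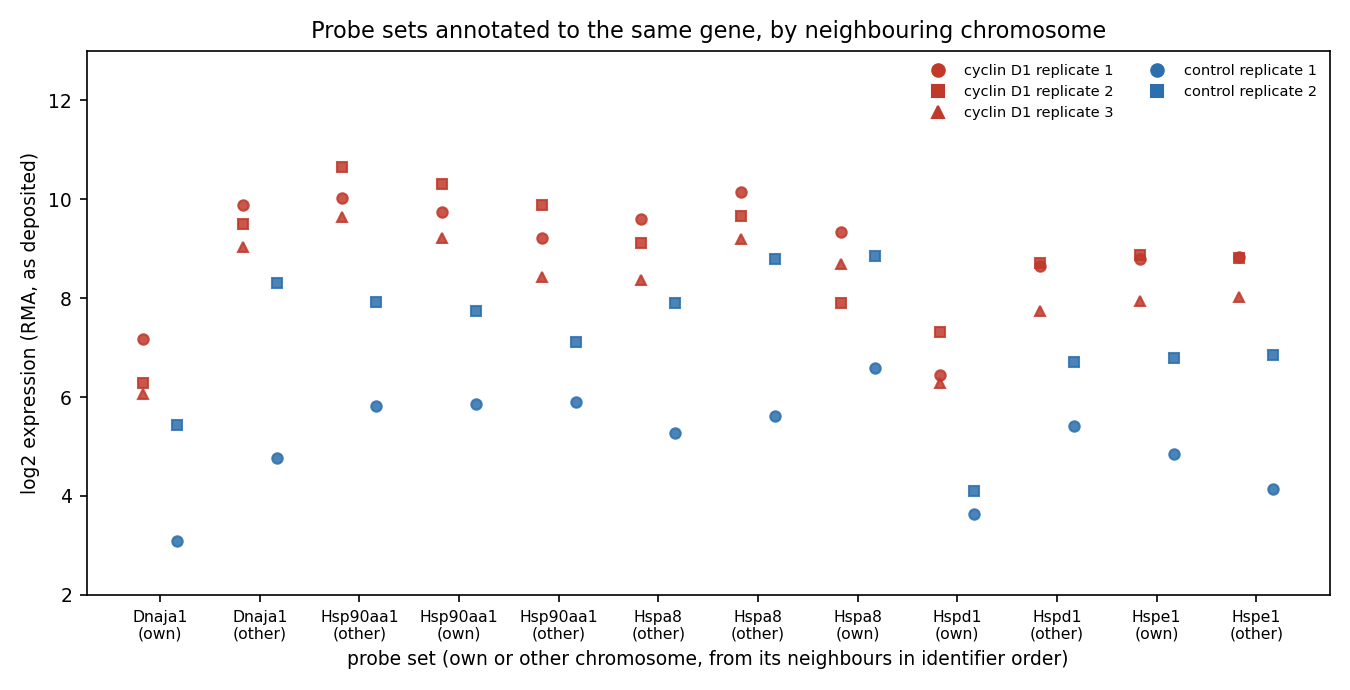
Deposited log2 expression of every probe set annotated to Dnaja1, Hsp90aa1, Hspa8, Hspd1 or Hspe1 on the cyclin D1 arrays (red) and control arrays (blue), marked "own" where its neighbours in identifier order lie on the chromosome of the gene and "other" where they do not. Of the sets shown, only the own-chromosome set of Hspa8 has overlapping groups.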

How the data were processed

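The authors deposited log2 expression per probe set, computed by RMA in Expression Console 1.1 (Affymetrix), per the submitters' processing notes. Other settings: not given in the sources used here. Base 2 follows from RMA's usual output and from values of 0.830 to 12.9. No detection calls were used, and the number of arrays limits precision. Of 35556 probe sets, 21789 had 1 gene symbol, 1621 several and 12146 none in the platform annotation. One per symbol, the brightest, gave 19938 genes, all of which were kept.

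Groups came from the sample titles. They were compared with limma 3.58.1 (R 4.3.3; lmFit, eBayes, two-sided), with Benjamini-Hochberg adjustment over all genes and a threshold of 0.05. The script was tested on simulated data. The members and lists were chosen with earlier results of these data known. Genes named are Hspa5, Hsp90b1, Dnajb9, the CCT genes, those that passed and the 4 with the smallest p per class or list. The remaining ER and mitochondrial genes and those said to be picked were added after their values were seen. Alternatives were renormalization, median centring, an intensity trend or robust prior, array weights, omission of genes below the median brightness, averaged probe sets, a replicate block, left-out arrays and, chosen after seeing the data, own-chromosome probe sets (judged from the 20 nearest annotated identifiers).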

Additional observations from a re-analysis of the deposited data

Results flagged for a closer look

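Probe sets annotated to a chaperone gene together with another gene stood outside the gene table, and 8 of the 10 had every cyclin D1 value above both controls, as had 22.4% of all genes and 82.2% of those in the brightest decile. All 10 were as bright on average as genes of that decile. Sets annotated to the same genes are not independent measurements. The 4 sets shared by Gm4247 and Dnajb6 differed by 3.39, 3.18, 3.10 and 3.07 on the log2 scale, cyclin D1 minus control, beside 0.77 for the probe set of Dnajb6 alone. The first of them had 6.80, 7.03 and 5.47 on the cyclin D1 arrays, against 3.15 and 2.93 on the controls. The 2 sets shared by Dnajb14 and Pin4 differed by 1.96 and 1.65, beside 0.11 for Dnajb14 alone. The 2 sets shared by Hspa8 and the small nucleolar RNA genes Snord14c and Snord14d differed by 1.60 and 1.65. Which of the named genes these sets read was not tested. The set shared by Hspa1a and Hspa1b had 4.88, 5.12 and 4.01 on the cyclin D1 arrays, against 4.85 and 3.74 on the controls, with overlapping groups. The set shared by Dnaja1 and Mir207 differed by -0.40, opposite in sign to both sets of Dnaja1 alone.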

How the results depend on the processing

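The median difference of the 80 genes kept its sign under every alternative run, while the number of calls did not hold. Against 17 chaperone genes higher, limma called 4 with array weights, 10 with an intensity trend and 0 when renormalized. With dim genes left out it called 27 of the 58 chaperone genes then tested. Over all genes the 1072 higher became 263 with array weights, 622 with a trend, 1457 with dim genes left out and 51 when renormalized. The 137 lower became 4 with array weights, 56 with dim genes left out, 21 when renormalized and 10 with the replicate block. With single arrays left out, 0 to 1365 genes were higher and 0 to 1063 lower, and 0 to 22 chaperone genes were higher and 0 to 2 lower. With renormalization and an array left out together, the ranges were 0 to 2221 and 0 to 3154 for all genes and 0 to 28 and 0 to 6 for chaperone genes. With the replicate block 17 chaperone genes were higher, 12 of them the same, beside 1137 of all genes. Whether the replicate numbers pair the mice could not be told. The deviations of the 2 controls from their mean mirror each other. The r of deviations for same-numbered arrays (-0.026 and 0.126) therefore cannot decide it. The median over the 80 genes was 1.07 with dim genes left out, 0.19 renormalized and 0.12 to 0.30 renormalized with an array left out, against 0.40 to 0.71 with only an array left out. For ER genes it was 0.49, with 0.39 to 0.60 and 1.16 to 1.61. For cytosolic genes it was 1.46 with dim genes left out and 0.16 renormalized, with 0.0047 to 0.28 and 0.41 to 0.87. For mitochondrial genes it was 0.49, with 0.28 to 0.79 and 1.21 to 1.65. For CCT genes it was 1.69 with all arrays, 0.84 renormalized and, renormalized, 0.33 without control 1 and 1.40 without control 2. Among genes that passed in one of the compared fits, the sign turned for Dnajc19 (-0.073 renormalized; -0.27, -0.053 and -0.17 also without control 1, cyclin D1 replicate 1 or cyclin D1 replicate 3) and, when renormalized without control 2, for Dnajb12 (-0.70), Dnajc4 (-1.22) and Pdia3 (-0.17); with arrays left out on either scale these 4 genes reached 1.37, 0.30, 0.35 and 1.77. Of the 94 genes followed, 14 that passed in neither fit also turned when renormalized with all arrays, among them Dnajb12 (-0.25), Dnajc4 (-0.42), Hsph1 (-0.24), Hspa1a (-0.19) and Dnaja3 (-0.24). Robust priors, averaged or own-chromosome probe sets and median centring gave 13, 20, 18 and 20 chaperone genes higher. The counts over all genes were 1031, 1095, 1049 and 1261. The cause of these shifts was not tested.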

Other observations

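Some genes had one value repeated across arrays. Of the 80 chaperone genes 3 (Dnajb5, Dnajb2 and Dnajc28) had the same deposited value on 3 arrays, or 3.75%, beside 4.89% of all genes.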
